A study of Mus musculus with 16 samples.

Results

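Pde1a and Elmod1 are 2 of the 23224 genes counted in 16 small cell lung cancers of mice, and among the 8 tumors with a CRISPR mutation in p130 each of them was high in some tumors and low in others. The pair was chosen by name, and was selected on its levels in these same tumors, so the difference between p130 and p107 tumors and the spread among p130 tumors are given as descriptions with no test. The tumors of both groups carried Trp53-/-; Rb1-/- in a mixed C57BL/6;129/Sv strain. In 8 tumors from 3 mice CRISPR had mutated p130, the protein of Rbl2, and in the other 8, from 4 mice, p107, the protein of Rbl1. The labels give neither the ages of the mice nor a tumor with both genes intact, and the share of cells that carried a mutation is not given. Each tumor goes by its title, where the guide and the mouse come first (sgp130_6637) and the tumor last (T1 to T5), so that sgp130_6637T1, T2 and T3 are sister tumors of one mouse. Tumors of one mouse share their host and are not independent of each other.

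PDE1A belongs to the phosphodiesterases that calcium and calmodulin switch on. These enzymes break down the second messengers cAMP and cGMP, and PDE1A is best known from brain and vascular smooth muscle. ELMOD1 carries an ELMO domain and speeds up GTP hydrolysis by small GTPases of the ARF family, which govern vesicle traffic and the actin skeleton; in mice its loss harms the hair cells of the inner ear. p107 and p130 are relatives of RB that hold back genes driven by E2F factors.

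RefSeq (build GRCm38.p6) lists 4 start sites of Pde1a, all on the minus strand of chromosome 2, and the first 2 of them are shown because the deposited counts are per gene and do not say which start the tumors used. Each window runs from 250 bases before to 50 bases after the start, and capitals mark matches on either strand to the motifs named after them. The first window is chr2:80129363-80129662 and the second chr2:80128922-80129221.
Pde1a window 1: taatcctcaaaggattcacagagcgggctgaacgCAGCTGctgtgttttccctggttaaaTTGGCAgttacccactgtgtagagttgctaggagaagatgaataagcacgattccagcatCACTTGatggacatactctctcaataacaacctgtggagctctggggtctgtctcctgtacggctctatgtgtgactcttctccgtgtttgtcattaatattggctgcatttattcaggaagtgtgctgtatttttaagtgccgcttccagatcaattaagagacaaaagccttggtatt
Pde1a window 2: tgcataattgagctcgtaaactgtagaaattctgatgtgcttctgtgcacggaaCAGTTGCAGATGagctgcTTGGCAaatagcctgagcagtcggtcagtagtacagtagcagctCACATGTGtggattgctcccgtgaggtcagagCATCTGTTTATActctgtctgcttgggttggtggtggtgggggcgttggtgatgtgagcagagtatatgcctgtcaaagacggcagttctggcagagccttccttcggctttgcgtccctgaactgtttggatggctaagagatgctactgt
The letters searched were the E2F sites TTTGGCGC and TTTCGCGC, the CHR elements TTTGAA and TTCGAA, the E-box CANNTG, the cAMP response element TGACGTCA, the NFI site TTGGCA, the TATA core TATAAA and the GC box GGGCGG. Window 1 holds 2 E-boxes and a TTGGCA at position -190 from the start. Window 2 holds 5 E-boxes, some of them overlapping, a TTGGCA at -178 and a TATAAA at -96. Any E-box is found in 72.3% of all RefSeq promoter windows of this length, TTGGCA in 14.1% and TATAAA in 13.6%. The 4 windows of Pde1a hold neither spelling of the E2F site, which occur in 0.514% and 0.323% of all windows, and no cAMP response element. Of the CHR elements, TTTGAA has 1 match, at -67 in window 3, which is not printed here. It is found in 17.9% of all windows. These matches describe the letters of the windows.

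RNA was sequenced from whole tumors, and the deposited values are counts estimated by RSEM. Totals were 12700334 to 21254514 estimated counts per tumor in the p130 group and 13300223 to 34620979 in the p107 group. Levels below are in CPM, that is, estimated counts per library size after edgeR's TMM scaling, and they are not per length, so that levels are compared between tumors and not between genes. Rbl2 lay at 15.6 to 54.4 CPM in p130 tumors and 55.4 to 128 CPM in p107 tumors, with no overlap, an edgeR adjusted p of 0.1 and a call in DESeq2. Rbl1 lay at 60.6 to 121 CPM in p130 tumors and 64.3 to 247 CPM in p107 tumors, so its RNA does not set the p107 label apart. Rb1 lay at 255 to 641 CPM in p130 tumors and 242 to 690 CPM in p107 tumors, and Trp53 at 17.0 to 38.7 CPM in p130 tumors and 15.6 to 27.7 CPM in p107 tumors, so that counts per gene do not show the deletions the labels give. The tumors expressed the neuroendocrine genes that define small cell lung cancer: all 12 listed markers were detected, and their summed level was 4515 to 13022 CPM in p130 tumors and 5390 to 12045 CPM in p107 tumors. Xist at 140.4 to 2271 CPM marked 6 p130 tumors, those of mice sgp130_6637 and sgp130_6638, as female, while the 2 of mouse sgp130_6697 and all p107 tumors had 15.0 to 23.0 CPM of the Y-linked Kdm5d. Sex therefore cannot be told apart from the group except through mouse sgp130_6697.

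Pde1a was high in most p130 tumors and low in every p107 tumor. It had 42.7, 275 and 1.19 CPM in tumors T1, T2 and T3 of p130 mouse sgp130_6637, 193, 201 and 18.1 CPM in T3, T4 and T5 of mouse sgp130_6638, and 165 and 279 CPM in T1 and T2 of mouse sgp130_6697. In p107 tumors it had 0.524 and 11.6 CPM in mouse sgp107_6627, 9.1 and 11.6 CPM in sgp107_6629, 13.5 and 3.56 CPM in sgp107_6630, and 8.3 and 7.84 CPM in sgp107_6631. Thus 7 of the 8 p130 tumors lay above the highest p107 tumor, while the eighth, sgp130_6637T3, lay below 7 of the 8 p107 tumors, so the groups overlapped. The mean was 147 ± 112 CPM in p130 tumors and 8.24 ± 4.34 CPM in p107 tumors (SD, n = 8 each), a difference of 3.26 in mean log2(CPM + 1). These levels rest on 17.3 to 5762 estimated counts in p130 tumors and 8.78 to 396.5 in p107 tumors, so even the low tumors were given some Pde1a counts. The Pde1a estimate was not a whole number in any of the 16 tumors, so reads shared with other genes may be part of it. In whole tumors fewer cells expressing a gene and less RNA per cell cannot be told apart.

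Elmod1 showed the same kind of pattern at a lower count. It had 22.8, 2.43 and 1.61 CPM in T1, T2 and T3 of p130 mouse sgp130_6637, 10.7, 6.66 and 28.6 CPM in T3, T4 and T5 of mouse sgp130_6638, and 0.501 and 28.2 CPM in T1 and T2 of mouse sgp130_6697. In p107 tumors it had 1.11 and 0.243 CPM in mouse sgp107_6627, 0 and 0.939 CPM in sgp107_6629, 0.284 and 0.0799 CPM in sgp107_6630, and 0.209 and 0.67 CPM in sgp107_6631. Here too 7 of 8 p130 tumors lay above every p107 tumor, but the exception was another one, sgp130_6697T1, which lay below 3 p107 tumors. The mean was 12.7 ± 12 CPM in p130 tumors and 0.441 ± 0.411 CPM in p107 tumors (SD, n = 8 each), a difference of 2.59 in mean log2(CPM + 1). The p107 values rest on 0 to 32.28 estimated counts per tumor, and the tumor with 0 counts, sgp107_6629T1, could hold up to 0.215 CPM, the level of 3 counts, which covers counting error only. In 5 of the 8 p107 tumors Elmod1 rested on 5 or fewer estimated counts.

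**Figure D1:**
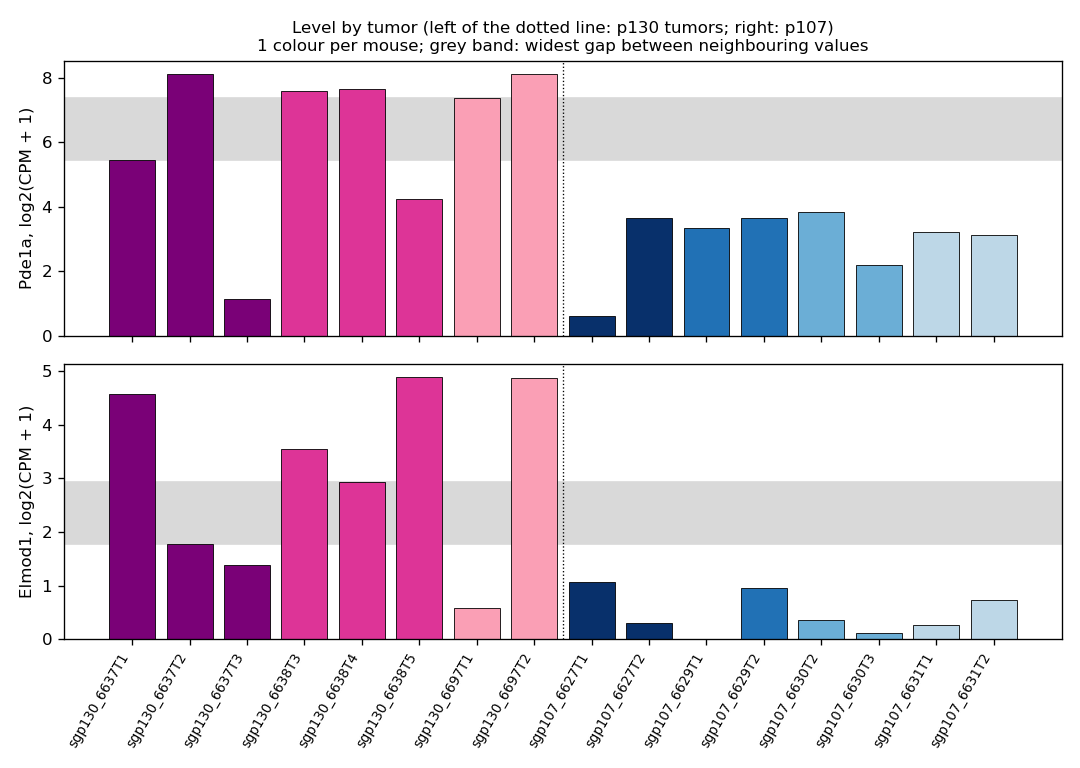
Level of Pde1a (top) and Elmod1 (bottom) in each tumor as log2(CPM + 1), p130 tumors left and p107 tumors right of the dotted line, with 1 colour per mouse; the grey band is the widest gap between neighbouring values over all 16 tumors. The bars above the band are 5 p130 tumors for each gene, and only partly the same ones.

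Between tumors with Y-linked RNA the picture was the same in kind for Pde1a and divided for Elmod1. The 2 tumors of p130 mouse sgp130_6697 had 165 and 279 CPM of Pde1a, against at most 13.5 CPM in p107 tumors. Their Elmod1 levels were 0.501 and 28.2 CPM, against at most 1.11 CPM in p107 tumors, so that only 1 of them lay outside the p107 range. The levels of Pde1a above the p107 range were thus present in p130 tumors of either sex.

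Ordered by mouse, mean Pde1a was 222 CPM in p130 mouse sgp130_6697, 138 CPM in sgp130_6638 and 106 CPM in sgp130_6637, followed by 10.4 CPM in p107 mouse sgp107_6629, 8.51 CPM in sgp107_6630, 8.07 CPM in sgp107_6631 and 6.04 CPM in sgp107_6627. The tumors of each mouse overlapped those of the next in this order, also between p130 mouse sgp130_6637 (1.19 to 275 CPM) and p107 mouse sgp107_6629 (9.1 to 11.6 CPM). Mean Elmod1 was 15.3 CPM in p130 mouse sgp130_6638, 14.3 CPM in sgp130_6697 and 8.94 CPM in sgp130_6637, then 0.675 CPM in p107 mouse sgp107_6627, 0.469 CPM in sgp107_6629, 0.439 CPM in sgp107_6631 and 0.182 CPM in sgp107_6630. For Elmod1 the single step at which neighbouring mice did not overlap was the one between the groups, with 1.61 CPM in the lowest tumor of mouse sgp130_6637 and 1.11 CPM in the highest of mouse sgp107_6627. The mice of the groups still overlapped: sgp130_6697, earlier in this order, had a tumor at 0.501 CPM, within the 0.243 to 1.11 CPM of sgp107_6627.

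Pde1a was split into a high and a low state by a wider gap than Elmod1, and neither gene was simply on or off. Over all 16 tumors, the widest gap between neighbouring Pde1a values was 1.93 on log2(CPM + 1), between 42.7 and 165 CPM, which left 5 tumors in a high state, all of them p130. Among the other genes tested, 2.41% had a gap as wide, and 0.202% had one with at least 3 tumors on each side. The 2 p130 tumors just below the gap, at 42.7 and 18.1 CPM, were intermediate, above every p107 tumor. For Elmod1 the widest gap was 1.16, between 2.43 and 6.66 CPM, also with 5 tumors above it, all p130, and 8.4% of the other genes had a gap as wide (1.2% with at least 3 tumors on each side). With a fixed level of 10 CPM instead, 10 tumors counted as high in Pde1a, among them 3 p107 tumors, and 4 in Elmod1.

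The spread among p130 tumors was the more unusual property of Pde1a. Its range of 7.0 on log2(CPM + 1) over p130 tumors was matched by 0.0606% of the other genes, and its range of 3.25 over p107 tumors by 7.24%. The range of Elmod1 was 4.3 over p130 tumors, matched by 1.49% of genes, and 1.07 over p107 tumors, matched by 50%. The wide range was what the genes were selected on, and these shares describe it.

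By the gap, 3 p130 tumors were high in both genes (sgp130_6638T3, sgp130_6638T4 and sgp130_6697T2), 2 in Pde1a alone (sgp130_6637T2 and sgp130_6697T1), 2 in Elmod1 alone (sgp130_6637T1 and sgp130_6638T5) and 1 in neither (sgp130_6637T3). By this cut each of the 4 combinations was present among p130 tumors, and mouse sgp130_6637 alone held 3 of them. The 2 tumors high in Elmod1 alone had intermediate Pde1a, 42.7 CPM in sgp130_6637T1 and 18.1 CPM in sgp130_6638T5. At the fixed level of 10 CPM, every tumor high in Elmod1 was high in Pde1a too, so the combinations depend on the cut. All 8 p107 tumors were low in both by the gap.

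Across the 8 p130 tumors the levels of Pde1a and Elmod1 were nearly unrelated, with Pearson's r = 0.08 and Spearman's rho = 0.1 on log2(CPM + 1). With each mouse's mean subtracted, r was 0.04 and rho 0.12. The value rests on single tumors: without sgp130_6637T3, which was low in both genes, r was -0.5, without sgp130_6697T2 it was -0.06, and without the 2 tumors farthest from the median of Pde1a, sgp130_6637T3 and sgp130_6638T5, it was -0.3. In p107 tumors, where Elmod1 was close to 0, r was -0.4 and rho -0.05 (n = 8), and r was 0.37 without sgp107_6627T1. No p is given, since the tumors share mice and the genes were picked together.

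**Figure D2:**
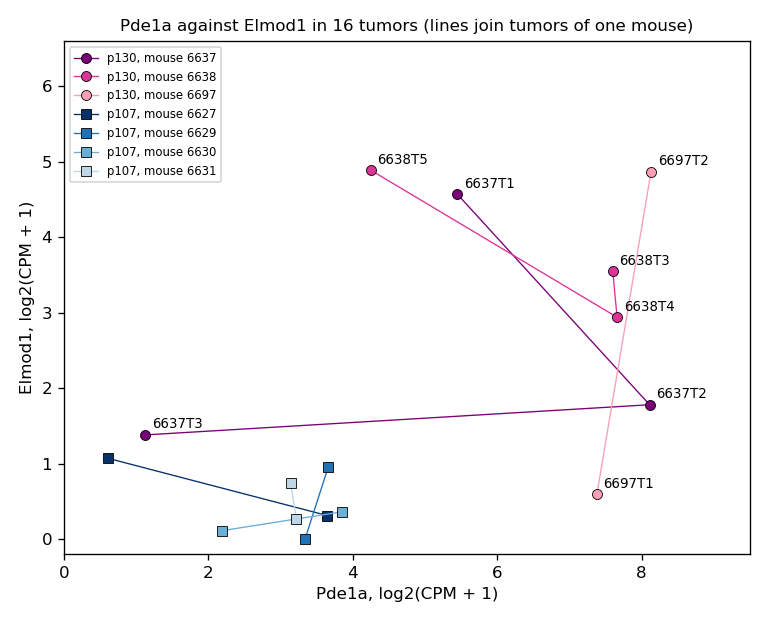
Pde1a (x axis) against Elmod1 (y axis) in 16 tumors, both as log2(CPM + 1), with lines joining sister tumors of one mouse. The p107 tumors lie in the lower left corner, and by the widest gap p130 tumors are found with either gene high, both or neither.

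Sister tumors often differed. In p130 mice, 23.8% of the variation of Pde1a and 12.8% of that of Elmod1 on log2(CPM + 1) lay between mice, where the median gene had 30.5%. In p107 mice the shares were 25.4% and 19.4%, where the median gene had 59.5%. By this measure most of the spread of both genes lay within mice, as it did for the median gene among p130 mice. The share was not adjusted for the number of mice. With 8 tumors from 3 or from 4 mice, most of the spread falls within mice even without an effect of the mouse. The p130 and p107 shares have unlike baselines and are not compared.

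The clearest case was the pair sgp130_6637T2 and sgp130_6637T3, whose transcriptomes were the most alike of the 11 sister pairs (r = 0.978 over the genes tested). Pde1a was 275 CPM in T2 and 1.19 CPM in T3, a 232-fold difference and a gap of 6.98 on log2(CPM + 1), while the median gap over all genes was 0.2 and the 99th percentile 1.76. None of the 14856 other genes tested had as wide a gap in this pair. Elmod1 was low in both, at 2.43 and 1.61 CPM. The third tumor of the mouse, sgp130_6637T1, was further from both by its transcriptome (r = 0.924 and 0.911) and was intermediate in Pde1a and high in Elmod1.

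The reverse was seen in mouse sgp130_6697, where the sister tumors shared high Pde1a (165 CPM in T1 and 279 CPM in T2) and differed 56.2-fold in Elmod1, with 0.501 CPM in T1 and 28.2 CPM in T2. This Elmod1 gap of 4.28 was matched by 17 other genes, 0.114% of those tested. In mouse sgp130_6638 the tumors T3 and T4 were alike in Pde1a, 1.04-fold apart, and T5 was 10.7-fold below T3 and 11.1-fold below T4. T5 had the highest Elmod1 of all tumors, 28.6 CPM, which was 2.68-fold above T3 and 4.3-fold above T4. In p107 mice, the widest sister difference in Pde1a was 22-fold, between 0.524 CPM in sgp107_6627T1 and 11.6 CPM in sgp107_6627T2, a gap matched by 1.74% of genes. The other p107 pairs were within 3.78-fold of each other in Pde1a.

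**Figure D3:**
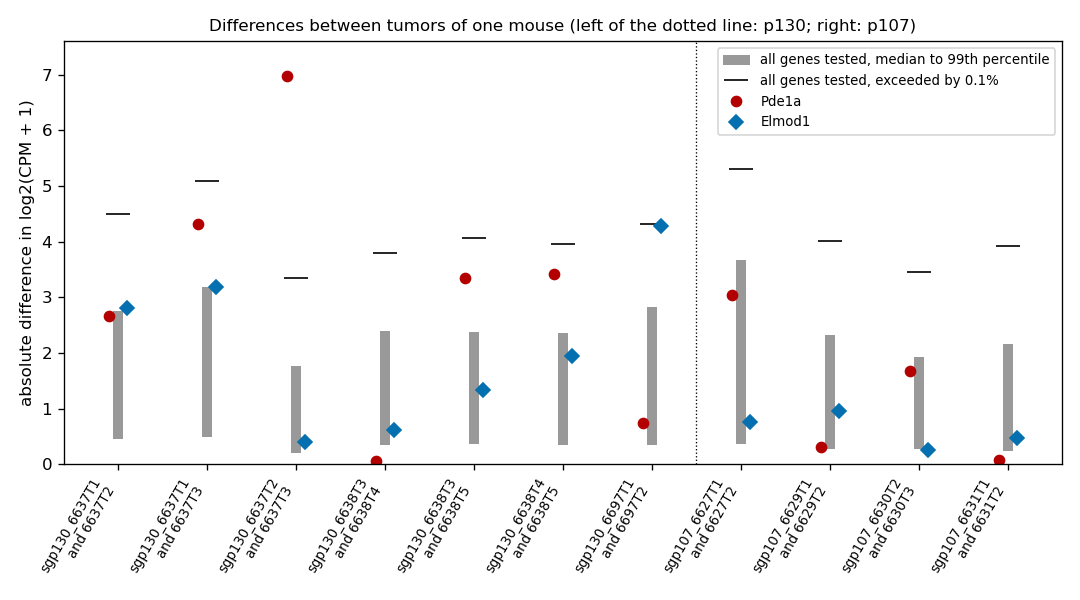
Absolute difference in log2(CPM + 1) between 2 tumors of one mouse for Pde1a (circles) and Elmod1 (diamonds), in 7 p130 pairs left and 4 p107 pairs right of the dotted line. Grey bars run from the median to the 99th percentile of all genes tested and dashes mark the level that 0.1% of genes exceed; Pde1a in sgp130_6637T2 and T3, at 6.98, lies above all other genes of that pair.

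Genes that went with Pde1a or Elmod1 were read over the 8 p130 tumors, among 1797 genes with a mean of at least 5 CPM and a range of at least 2 on log2(CPM + 1) in them. These genes were picked for their r, which is given without a p. For Pde1a, 3 of the 1797 genes had r of at least 0.9, or 0.167%, and none had r of -0.8 or less before rounding. For Elmod1, 8 genes or 0.445% had r of at least 0.9, and 36 genes had at least 0.8 and 14 had -0.8 or less, against 9 and 0 for Pde1a. No gene had r of at least 0.8 with both, and the lists of the 100 genes of highest r shared 1 gene. Both counts would be small for unrelated lists too, since 9 and 36 of the 1797 genes reached 0.8 and each list held 100 of the 1797. No conclusion is drawn from them.

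The named genes most like Pde1a were Thbs4 (r = 0.93), which encodes a secreted thrombospondin of the matrix, Klhdc7a (0.90), Sox21 (0.89), a SOX transcription factor of the nervous system, and Trp73 (0.85), a relative of Trp53. They were followed by Fam149a (0.84), the junction scaffold Magi1 (0.83), Tmtc2 (0.82), an enzyme of the endoplasmic reticulum, and the glypican Gpc6 (0.80). Thbs4 had 31.2, 56.0 and 2.72 CPM in T1, T2 and T3 of p130 mouse sgp130_6637, 39.0, 58.6 and 15.1 CPM in T3, T4 and T5 of sgp130_6638, and 123 and 58.9 CPM in T1 and T2 of sgp130_6697. Thus Thbs4 was lowest in the same 2 tumors as Pde1a, sgp130_6637T3 and sgp130_6638T5. Yet in p107 tumors, where Pde1a was low, Thbs4 had 25.3 to 297 CPM with a median of 99.7 CPM, above its median of 47.5 CPM in p130 tumors.

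Sox21 had 5.57, 16.2 and 1.12 CPM in mouse sgp130_6637, 21.9, 18.6 and 1.06 CPM in sgp130_6638 and 6.4 and 30.7 CPM in sgp130_6697, against 5.64 to 56.5 CPM in p107 tumors. It too was lowest in sgp130_6638T5 and sgp130_6637T3, and its p107 values covered most of its p130 range. The genes of lowest r were Kcnk2 (-0.80), a potassium leak channel, Ffar2 (-0.80), a receptor for short-chain fatty acids, the kinase Sgk3 (-0.79) and Nmnat3 (-0.68), an enzyme of NAD synthesis. Kcnk2 had 91.4 CPM in sgp130_6637T3 and 21.1 CPM in sgp130_6638T3, the ends of its range.

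Several of these values hang on sgp130_6637T3, the tumor of lowest Pde1a. Leaving out 1 tumor at a time, r was 0.88 to 0.92 for Sox21, 0.80 to 0.88 for Magi1 and 0.79 to 0.96 for Trp73. Without sgp130_6637T3, r was 0.78 for Thbs4, 0.73 for Klhdc7a, 0.36 for Gpc6, 0.47 for Fam149a and 0.47 for Tmtc2. It was then -0.28 for Sgk3 and -0.07 for Nmnat3. Spearman's rho over all 8 p130 tumors ran from 0.45 for Gpc6 to 0.93 for Klhdc7a among the 8 genes of highest r. Among the 4 of lowest r it ran from -0.76 for Kcnk2 to -0.19 for Nmnat3. With mouse means subtracted, which keeps sgp130_6637T3 in, the 8 genes of highest r had r of 0.76 to 0.93.

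The named genes most like Elmod1 were Slc16a5 (r = 0.96), of the monocarboxylate transporter family, the axonal adhesion protein Cntn2 (0.96), Sez6l (0.94), Tmem45b (0.94) and Enah (0.93), a regulator of actin filaments. Tmem179, Arhgef16, an exchange factor for RhoG, and the RING finger protein Rnf112 followed at 0.92 each. Slc16a5 had 22.9, 7.77 and 6.07 CPM in T1, T2 and T3 of p130 mouse sgp130_6637, 11.7, 8.71 and 18.4 CPM in T3, T4 and T5 of sgp130_6638, and 4.95 and 16.5 CPM in T1 and T2 of sgp130_6697. Arhgef16 had 148, 67.6 and 54.2 CPM in mouse sgp130_6637, 69.4, 85.1 and 141 CPM in sgp130_6638, and 20.9 and 143 CPM in sgp130_6697. Both were lowest in sgp130_6697T1 and highest in the 3 tumors of highest Elmod1, sgp130_6637T1, sgp130_6638T5 and sgp130_6697T2.

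Lowest in r were Rpl22l1 (-0.90), a relative of a ribosomal protein gene, Plekha2 (-0.89), which binds membrane phosphoinositides, Pank1 (-0.86), an enzyme of coenzyme A synthesis, and Slitrk6 (-0.85), a neuronal membrane protein. Slitrk6 had 59.6 CPM in sgp130_6697T1 and 0.559 CPM in sgp130_6638T5, the tumors of lowest and highest Elmod1 in the p130 group. Leaving out 1 tumor or 1 mouse at a time kept the 8 genes of highest r at 0.87 or above, and with mouse means subtracted they had 0.92 to 0.98.

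**Figure D4:**
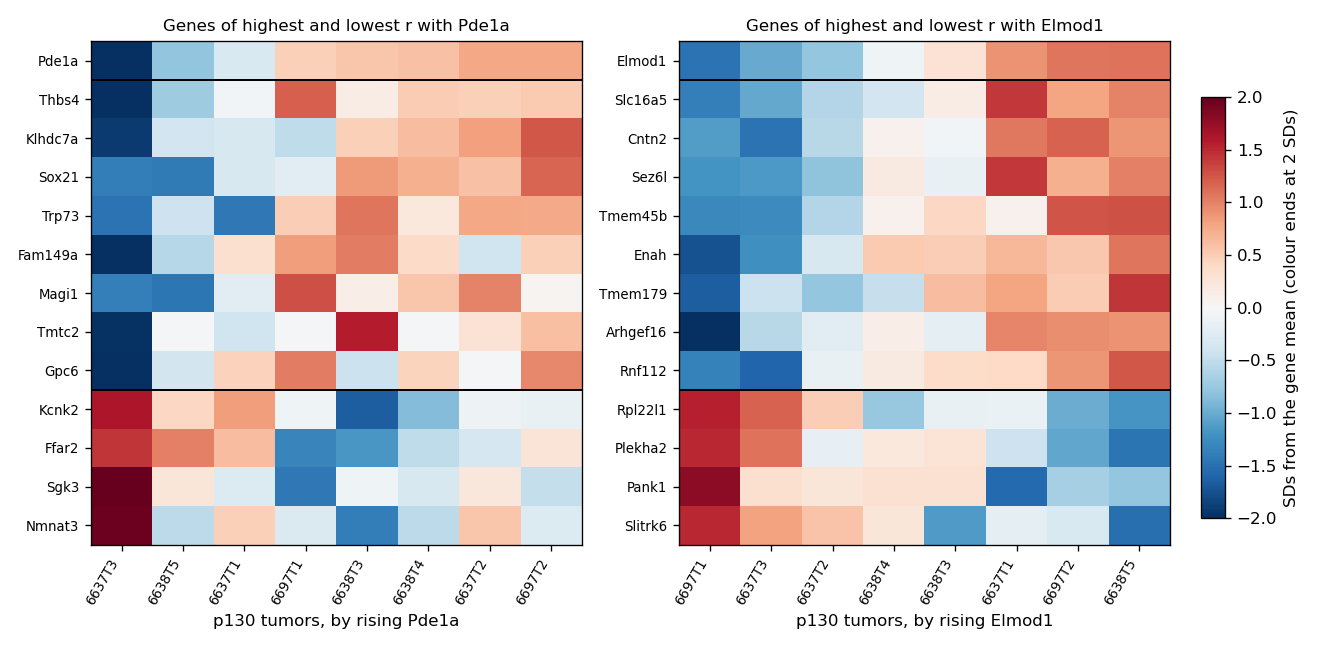
The 8 genes of highest and 4 of lowest r with Pde1a (left) and with Elmod1 (right) in the 8 p130 tumors, in order of rising level of the top gene; colour gives each gene's SDs from its own mean of log2(CPM + 1). The genes below the first line follow the top gene and those below the second run against it, as they were picked to do; in the left panel much of the contrast lies in the first column, sgp130_6637T3.

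The p107 tumors were not used to pick these genes, and for Pde1a the r over them rests on 1 tumor, sgp107_6627T1, which had 0.524 CPM of it where the other 7 had 3.56 to 13.5 CPM. Over all 8 p107 tumors the 8 genes of highest r with Pde1a had a median r of -0.44 with it, and 1 of them, Klhdc7a at 0.76, was positive, where 56.3% of the pool was positive with a median of 0.15. Without sgp107_6627T1, a setting chosen after seeing the data, the median was 0.02 and 5 were positive before rounding, where 47.5% of the pool was positive with a median of -0.03. Thbs4 then had r = 0.47 in place of -0.35, Magi1 0.07 in place of -0.60 and Klhdc7a 0.03 in place of 0.76. The 4 genes of lowest r with Pde1a were above 0 over all 8 p107 tumors, with Ffar2 at 0.79 and Nmnat3 at 0.75, and all 4 were below 0 without sgp107_6627T1, with Ffar2 at -0.06 and Nmnat3 at -0.26. Sox21, Tmtc2 and Gpc6 were below 0 in both settings.

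The 8 genes of highest r with Elmod1 had a median r of -0.38, with 2 positive, Sez6l at 0.47 and Enah at 0.19, over p107 tumors, where 49.7% of the pool was positive. Leaving out 1 p107 tumor at a time, that median was -0.48 to -0.26 and 2 or 3 of the 8 were positive, though single genes moved, such as Arhgef16 with -0.50 over all 8 and 0.12 without sgp107_6627T1. The 4 genes of lowest r with Elmod1 were above 0 over all 8 p107 tumors and without any 1 of them. Pde1a spanned 3.25 and Elmod1 1.07 on log2(CPM + 1) over p107 tumors, and Elmod1 rests on few counts, which limits what these r can show.

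Between p130 and p107 tumors, none of the 24 genes named for their r passed edgeR's quasi-likelihood test with Benjamini-Hochberg adjustment over 14857 genes, and DESeq2 called none of them; Thbs4, Gpc6 and Sgk3, or 3 of 24, had an unadjusted edgeR p under 0.05. In edgeR's test 4 genes or 0.0269% passed, and 1756 had an unadjusted p under 0.05. DESeq2 called 335 of 20117 genes, or 1.67%. The log2 fold changes of the 24 genes, p130 over p107, ran from -1.51 ± 0.48 (SE) for Sgk3 to 1.3 ± 0.81 for Slitrk6, with adjusted p of 0.25 and 0.546. Arhgef16 averaged 91.2 ± 47.5 CPM in p130 tumors and 53.8 ± 33.5 CPM in p107 tumors, and Thbs4 48.1 ± 36.7 CPM in p130 tumors and 123 ± 91.2 CPM in p107 tumors (SD, n = 8 each). In mean log2(CPM + 1), p130 minus p107, the 24 genes ran from -1.5 for Thbs4 to 1.09 for Arhgef16, beside 3.26 for Pde1a and 2.59 for Elmod1. The pseudocount bears on these sizes: on log2(CPM + 0.1) the difference was 3.44 for Pde1a and 4.03 for Elmod1, so that the order of the pair was reversed.

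Of the other cyclic nucleotide phosphodiesterase genes, 18 of 23 were tested, none passed in edgeR or DESeq2 (2 with an unadjusted edgeR p under 0.05), and 7 had a positive log2 fold change, with a median of -0.16 where the median of all genes was 0 and 50% were positive. The nearest relatives of Pde1a had other patterns across the tumors. Pde1b, also switched on by calmodulin, had 2.5, 2.77 and 1.67 CPM in p130 mouse sgp130_6637, 47.7, 8.99 and 82.1 CPM in sgp130_6638, and 23.5 and 0.629 CPM in sgp130_6697, against 1.28 to 35.6 CPM in p107 tumors. It was highest in sgp130_6638T5, a tumor of low Pde1a, and its r with Pde1a over p130 tumors was 0.05.

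Pde1c, the third calmodulin-dependent gene, averaged 57.6 ± 26.6 CPM in p130 tumors and 76.4 ± 23.6 CPM in p107 tumors (SD, n = 8 each). Its r with Pde1a was 0.67 over p130 tumors and -0.68 over p107 tumors, or 0.25 without sgp107_6627T1. The summed level of the 23 genes was 481 to 777 CPM in p130 tumors and 670.5 to 827 CPM in p107 tumors. The lowest edgeR adjusted p among them was 0.375, for Pde6d, at 38.0 ± 9.68 CPM in p130 tumors and 49.6 ± 9.18 CPM in p107 tumors. The levels of Pde2a, Pde3a, Pde3b, Pde4a, Pde4b, Pde4c, Pde4d, Pde5a, Pde7a, Pde8a, Pde8b, Pde9a, Pde10a and Pde11a also overlapped between the groups. Pde7b had the lowest r with Elmod1 of the list, -0.84 over p130 tumors and 0.66 over p107 tumors, or 0.31 without sgp107_6627T1.

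**Figure D5:**
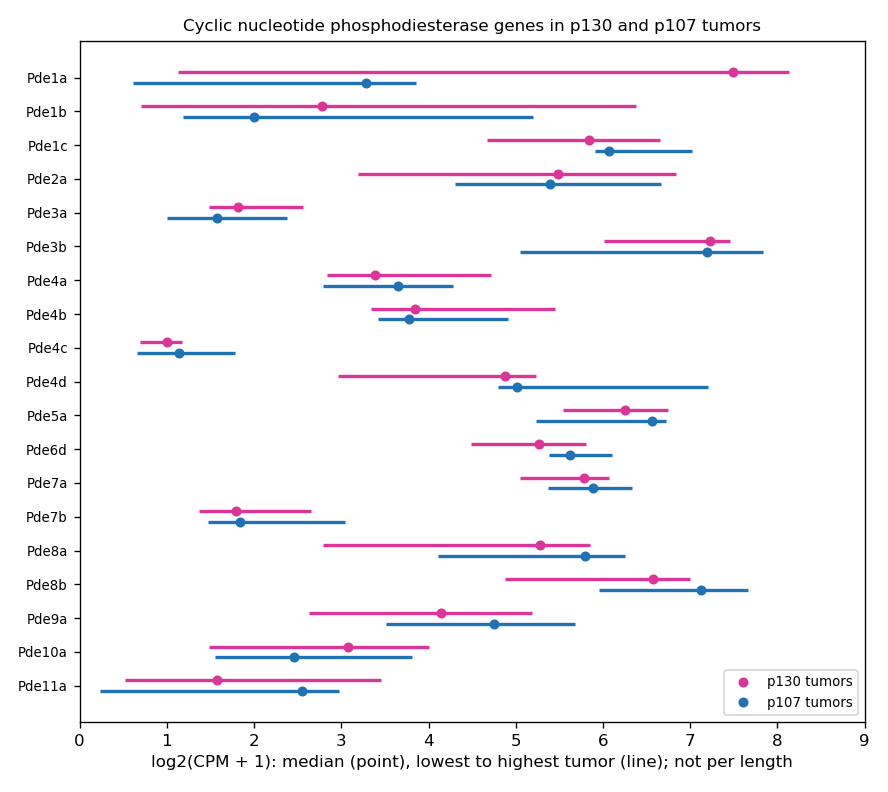
Level of Pde1a and of the 18 other phosphodiesterase genes tested, as log2(CPM + 1), not per length: points are medians and lines run from the lowest to the highest of 8 p130 tumors (upper line of each pair) and 8 p107 tumors (lower line). Pde1a has medians of 179 CPM in p130 tumors and 8.7 CPM in p107 tumors, and the ranges of every gene shown overlap between the groups.

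The genes that make, sense or act beside cyclic nucleotides gave no call in edgeR. Of the cyclases and natriuretic peptide receptors, 13 of 16 were tested and 3 had a positive log2 fold change, with a median of -0.25. Of the cyclic nucleotide effectors, such as the kinase A subunits Prkaca and Prkar1a, 23 of 25 were tested and 12 were positive, with a median of 0.06. Of calmodulin genes and the kinases and phosphatases it controls, 20 of 22 were tested and 11 were positive, with a median of 0.02. In these 3 lists 0 genes passed edgeR and 1, the calmodulin-binding Pcp4, was called by DESeq2, while 1, 1 and 2 had an unadjusted edgeR p under 0.05.

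Among the ELMO domain genes and their DOCK partners all 12 listed were tested, 0 passed edgeR (2 with an unadjusted p under 0.05), and 4 had a positive log2 fold change, with a median of -0.1. Elmod3 averaged 13.2 ± 1.8 CPM in p130 tumors and 17.7 ± 2.2 CPM in p107 tumors (SD, n = 8 each), with a log2 fold change of -0.42 ± 0.12 (SE), an edgeR adjusted p of 0.227 and a call in DESeq2. Elmod2, with GTPase-activating function like Elmod1, averaged 66.6 ± 22.0 CPM in p130 tumors and 50.6 ± 11.2 CPM in p107 tumors, with an adjusted p of 0.44. Neither followed Elmod1 over p130 tumors, with r of -0.19 for Elmod3 and 0.29 for Elmod2. The GTPase Rac1, on which ELMO and DOCK proteins act, had the lowest r with Elmod1 of the list, -0.82 over p130 tumors and 0.11 over p107 tumors. The median r of the list with Elmod1 over p130 tumors was 0.07. Rac1 levels of 321 to 475 CPM in p130 tumors lay within the 295 to 564 CPM of p107 tumors.

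All 19 listed ARF family genes were tested, 0 passed edgeR or DESeq2 (3 with an unadjusted edgeR p under 0.05), and 13 had a positive log2 fold change, with a median of 0.1. Arl4a had r = 0.81 with Elmod1 over p130 tumors, from 105 CPM in sgp130_6697T1 to 519.7 CPM in sgp130_6638T5. It was the 1 gene of this list with r of at least 0.8, a level that 1.23% of 14856 genes tested reached. Arf1 had r = -0.88 with Pde1a within a narrow range of 435 to 585 CPM in p130 tumors, against 406 to 479 CPM in p107 tumors. The median r of the list over p130 tumors was -0.06 with Elmod1 and -0.18 with Pde1a. The summed level of the list had r of -0.74 with Pde1a over p130 tumors and -0.91 over p107 tumors. With Elmod1 the sum had r of 0.37 and 0.1. The sum spanned 2467 to 2961 CPM in p130 tumors and 2344 to 2699 CPM in p107 tumors, highest there in sgp107_6627T1, which had the lowest Pde1a. Over p107 tumors r was -0.29 for Arl4a and 0.18 for Arf1, and without sgp107_6627T1 it was 0.03 and -0.30.

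The genes beside Pde1a and Elmod1 on their chromosomes were read in gene order, 5 on each side. On chromosome 2, next to Pde1a, Itga4, Itprid2, Dnajc10, Nckap1 and Dusp19 were tested and none passed edgeR or DESeq2, with 1, Itga4, at an unadjusted edgeR p under 0.05; their r with Pde1a over p130 tumors ran from -0.66 for Dnajc10 to 0.23 for Itga4. Ppp1r1c and Prdx6b, the nearest on either side, were at most 0.204 CPM in p130 tumors and 0.0956 CPM in p107 tumors. The immediate neighbours of Pde1a were thus near 0 in both groups. Neurod1, a neuronal transcription factor gene 3 places away, was too low to be tested. It had 9.15, 0.0694 and 0 CPM in T1, T2 and T3 of p130 mouse sgp130_6637, 0.0728, 4.28 and 1.45 CPM in T3, T4 and T5 of sgp130_6638, and 0 and 0.145 CPM in sgp130_6697, against at most 0.0608 CPM in p107 tumors.

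On chromosome 9, next to Elmod1, Rab39, a vesicle GTPase gene 3 places away, had r = 0.81 with Elmod1 over p130 tumors and 0.67 over p107 tumors. Over p130 tumors this was the highest r of the 6 neighbours tested, and 1.23% of 14856 genes tested had r of at least 0.8. Rab39 had 1.61 to 5.76 CPM in p130 tumors and 0.719 to 4.31 CPM in p107 tumors, with a log2 fold change of 0.66 ± 0.32 (SE) and an edgeR adjusted p of 0.425. Tnfaip8l3, the nearest neighbour on one side, was not tested and had 0.0694 to 11.4 CPM in p130 tumors, highest in sgp130_6638T3, against 0.0582 to 1.34 CPM in p107 tumors. Of the other neighbours, Acat1, Cul5, Slc35f2, Dmxl2 and Sh2d7 were tested; none of them nor Rab39 passed edgeR or DESeq2 or had an unadjusted edgeR p under 0.05, and Sln, Cyp19a1 and Gldn lay at or below 0.307 CPM in p130 tumors and 0.791 CPM in p107 tumors.

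Of 71 cell type markers tested, 0 passed between the groups in edgeR and 16, or 22.5%, had an unadjusted p under 0.05, against 1756 or 11.8% of all 14857 genes tested. Of these 16 genes 14 were lower in p130 tumors, and 5 were endothelial (Pecam1, Cdh5, Kdr, Tie1 and Emcn), all 5 lower, of 8 endothelial genes tested. DESeq2 called 2, the endothelial Cdh5 and the B cell gene Cd79b, both lower in p130 tumors. The summed T, NK and B cell markers reached 104 CPM in 1 p107 tumor, sgp107_6631T2, and 15.1 CPM in the next highest, sgp107_6627T2. Of smooth muscle and pericyte markers, which bear on Pde1a, 9 of 10 were tested; their sum was 85.2 to 191 CPM in p130 tumors and 96.0 to 213 CPM in p107 tumors, and its r with Pde1a over p130 tumors was -0.17. The highest sum among p130 tumors, 191 CPM, was in sgp130_6637T1, where Pde1a was intermediate. Of NEUROD1 and neuronal markers, 6 of 12 were tested; the sum was 567 to 1130 CPM in p130 tumors and 433 to 1902 CPM in p107 tumors, with r of 0.43 with Pde1a and 0.22 with Elmod1 over p130 tumors.

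In most marker lists more genes had a negative than a positive log2 fold change, while the summed levels overlapped between the groups. The genes with a positive log2 fold change, p130 over p107, were 2 of 9 for smooth muscle and pericytes (median -0.42), 2 of 8 for endothelium (-0.5), 2 of 8 for macrophages (-0.33), 2 of 8 for fibroblasts (-0.2), 1 of 8 for alveolar epithelium (-0.3), 1 of 5 for airway epithelium (-0.34), 0 of 4 for T, NK and B cells (-1.5) and 2 of 6 for NEUROD1 and neuronal markers (-0.2). They were 6 of 12 for neuroendocrine markers (0) and 2 of 3 for Schwann cells and glia (0.14), where the median of all genes was 0. Sums were 156 to 478 CPM in p130 tumors and 187 to 634 CPM in p107 tumors for fibroblasts, 386 to 730.1 CPM in p130 tumors and 286 to 1129 CPM in p107 tumors for endothelium, and 162 to 560 CPM in p130 tumors and 242 to 524 CPM in p107 tumors for macrophages. They were 4.89 to 10.5 CPM in p130 tumors and 6.55 to 104 CPM in p107 tumors for T, NK and B cells, 181 to 745 CPM in p130 tumors and 284 to 778 CPM in p107 tumors for alveolar epithelium, 97.6 to 2498 CPM in p130 tumors and 156 to 8348 CPM in p107 tumors for airway epithelium, and 169.6 to 481 CPM in p130 tumors and 217 to 368 CPM in p107 tumors for Schwann cells and glia. The endothelial sum was mostly Vwf, with a median share of 83.2% in p130 tumors and 72.5% in p107 tumors; without it the sum was 62.8 to 127 CPM in p130 tumors and 115 to 211 CPM in p107 tumors. The T, NK and B cell sum of 104 CPM was that of sgp107_6631T2, where the p107 median was 9.15 CPM. Of these genes, Cd79a had a median of 0.731 CPM and a highest value of 21.8 CPM in p107 tumors. For Cd8a the p107 values were 2.17 and 26.8 CPM. No marker was at 0 in every tumor. Over p130 tumors, r of these sums was -0.23 to 0.4 with Pde1a. With Elmod1 it was from -0.64, for T, NK and B cells, to 0.34. The smooth muscle and pericyte sum had r = 0.42 with Elmod1, and the neuroendocrine sum -0.08 with Pde1a and -0.16 with Elmod1. The part of other cell types in the levels of Pde1a and Elmod1 was not tested. Rbl2, the mutated gene, had r = 0.65 with Pde1a and -0.12 with Elmod1 over p130 tumors; its lowest levels, 15.6 and 15.8 CPM, were in sgp130_6638T3, with high Pde1a, and in sgp130_6637T3, with low Pde1a.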

How the data were processed

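RNA from 16 frozen mouse lung tumors was sequenced after mRNA library preparation, per the labels' protocols. The authors deposited estimated counts for 23224 gene rows, made with RSEM 1.2.12, Bowtie 1.0.1 and mm9, per the submitters' processing notes; the sources used here give no annotation or strand setting. Between 55.8% and 70.2% of the values above 0 in a tumor were not whole to within 1e-09, so reads shared with related genes may be split. A second table the authors deposited holds a normalized signal, each column scaled to the same upper quartile, and served as an alternative. Estimated counts were rounded and tested with edgeR 4.0.16 in R 4.3.3 (TMM, filterByExpr, robust quasi-likelihood, threshold 0.05), p130 minus p107 over all tumors; DESeq2 1.42.0 and limma 3.58.1 (voom, mouse as random block) were alternatives, and the test was checked on simulated data. Per the labels the tumors are biological replicates, but tumors of 1 mouse share their host, so p-values may be too small. The mouse was read from the titles. The genes Pde1a and Elmod1, the 18 gene lists (219 entries, Dnah5 without a row) and the tests were chosen with earlier results of these data known. Named are the 8 genes of highest and 4 of lowest r with each gene, 5 neighbours on each side by gene order of the reference annotation, the phosphodiesterase and ELMO lists, and the most abundant or called genes of other lists; symbols that are gene model or clone names were passed over. A count of 3 set the floor for a tumor at 0.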

Additional observations from a re-analysis of the deposited data

Results flagged for a closer look

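Of 56 sets of 8 tumors examined, 1 gene in 1 group each, 8 had a highest or lowest tumor that stood apart from the other 7 by Dixon's criterion on log2(CPM + 1). Independent sets drawn at random would give about 1 in 20, or 2.8 of 56. These sets are not of that kind: many of the genes were picked for their r over the p130 tumors, and several cases share a tumor. No excess over chance is read from the 8. Pde1a and Elmod1 themselves had no such tumor in either group.

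In p130 tumors both cases were sgp130_6637T3, the tumor of lowest Pde1a. Gpc6 was 1.19 CPM there, against 4.44 to 11.3 CPM in the other p130 tumors, and Sgk3 was 15.9 CPM, against 1.72 to 5.43 CPM. Both genes were picked for their r with Pde1a over these tumors.

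In p107 tumors, sgp107_6627T1, the tumor of lowest Pde1a in that group, stood apart in 4 genes. It had 0.175 CPM of Ffar2, against 6.02 to 19.4 CPM in the other p107 tumors, 5.71 CPM of Nmnat3, against 17.0 to 29.0 CPM, 0 CPM of Slc16a5, against 4.56 to 17.6 CPM, and 1.46 CPM of Arhgef16, against 16.6 to 96.1 CPM. In sgp107_6629T1, Cntn2 was 129.7 CPM, against 2.37 to 16.9 CPM, and Pank1 was 9.03 CPM, against 15.2 to 19.6 CPM.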

How the results depend on the processing

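Both genes kept a higher mean in p130 than in p107 tumors under every alternative run. Leaving out 1 tumor gave a log2 difference of 2.92 to 3.98 for Pde1a and 2.33 to 2.95 for Elmod1, and leaving out 1 mouse 2.74 to 4.05 and 2.16 to 2.89. With log2(CPM + 0.1) they were 3.44 and 4.03, so that Elmod1 had the larger one. The authors' normalized table gave 4.3 for Elmod1, since its values are on a larger scale beside the same pseudocount of 1. The r between the genes was -0.3 without the 2 farthest tumors, and -0.5 to 0.26 without 1 tumor or -0.34 to 0.22 without 1 mouse, -0.34 without mouse sgp130_6637. At 10 CPM, 10 tumors were high in Pde1a.

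Genes with r of at least 0.9 numbered 3 for Pde1a, 5 with mouse means subtracted, 7 with no filter, and 2 to 16 without 1 tumor or 4 to 36 without 1 mouse; 16 were reached without sgp130_6637T3 and 36 without mouse sgp130_6637. For Elmod1 they numbered 8, then 25, 26, 10 to 21 (21 without sgp130_6697T2) and 34 to 74. Fewer tumors leave more room for a high r by construction. Of the values of r of named genes over p130 tumors, and of their median over p107 tumors, 297 moved by less than 0.1 under alternatives, 30 moved more and 1 changed sign. The last was the median r with Pde1a, -0.55 to 0.02 without 1 p107 tumor, a setting added after seeing the data.

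Calls between the groups numbered 4 in edgeR, 335 with DESeq2, 1 with counts summed per mouse (1013 unadjusted), 0 in voom with a random mouse term (935 unadjusted), 0 in tumors with Y-linked RNA (1037 unadjusted), 0 to 6 without 1 tumor and 0 to 10 without 1 mouse. There were 0 without sgp107_6630T2 (1473 unadjusted), 1 without sgp130_6638T5, and 2 without sgp130_6637T1, sgp130_6638T3, sgp107_6629T2 or sgp107_6631T2. There were 0 without mouse sgp130_6637 (1665 unadjusted), sgp130_6638 (1605), sgp107_6629 (1818) or sgp107_6631 (1507), 1 without sgp107_6627 and 10 without sgp130_6697. No paired analysis was possible because each mouse held 1 group and the replicate numbers only name tumors. The shallowest tumor, sgp130_6638T3 of the p130 group, had 12700334 estimated counts. Elmod1 in p107 tumors rests on at most 32.28 counts, in sgp107_6629T2, which limits differences within that group.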

Other observations

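Other genes that differed most between the most alike sister tumors, sgp130_6637T2 and sgp130_6637T3, were picked once their values were known, and are given as values only. After Pde1a, the widest gaps were those of Anks1b (47.6 CPM in T2 and 0.558 CPM in T3), a gene of a postsynaptic protein, Kif26b (54.2 and 0.977 CPM in T2 and T3), a kinesin family gene, and the protocadherin gene Pcdh10 (34.1 and 0.349 CPM). Isx, an intestinal homeobox gene, ran the other way, with 0.0694 CPM in T2 and 17.2 CPM in T3. In this pair 28 genes had a gap of at least 3 on log2(CPM + 1), against 29 to 272 in the other 10 sister pairs.

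In mouse sgp130_6697, where the sister tumors differed in Elmod1, 123 genes had a gap of at least 3. Nell2, a secreted neuronal protein gene, had 103 CPM in T1 and 1.31 CPM in T2, and Calb1, a calcium-binding protein gene, 361 CPM in T1 and 7.26 CPM in T2. These ran against Elmod1, which was low in T1.

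Ccnd1, the cyclin D1 gene, was also looked up after its values were seen. Its r with Elmod1 was 0.86 over p130 tumors and 0.02 over p107 tumors, with 7.84 CPM in sgp130_6697T1 and 41.8 CPM in sgp130_6638T5, the p130 tumors of lowest and highest Elmod1, and 11.5 to 40.3 CPM in p107 tumors.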
